A study of Mus musculus with 9 samples.

Results

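The genes described here are the collagens, laminins and a set of secreted matrix proteins of the mouse cortex. Every row of the count table with a symbol of the form Col, number, a, number, or of the form Lam with a, b or c and 1 digit, was taken, and Sparc, Sparcl1, Fn1, Nid1, Nid2, Bgn, Dcn, Lum and Mgp were added. This gave 64 of the 34714 gene symbols in the table, and all 64 had enough counts to be tested. Their transcripts were counted in bulk RNA from the cortex of 9 mice, 3 in each of 3 groups. The first group had experimental autoimmune encephalomyelitis (EAE, an immune attack on brain and spinal cord that models multiple sclerosis) and received Au18(L-NIBC)14, a gold nanocluster; it is written as treated EAE. The second had EAE without the compound, and the third was naive. The source names number separate mice in each group. The labels give no strain, sex, age, dose or schedule, no day of sampling, and no vehicle for the groups without the compound. The series title names oligomerisation of ASC, an adaptor of the inflammasome, as the target of the compound. The comparisons of EAE with naive and of treated EAE with EAE ask which matrix transcripts differed with disease and with the compound.

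Collagens and laminins are secreted as trimers of separately encoded chains. In the brain they are concentrated in the basement membranes of vessels, of the pial surface and of the choroid plexus, where collagen IV and laminin networks are joined by nidogens, while fibrillar collagens, decorin and lumican belong mostly to meningeal and perivascular fibroblasts. The space between neurons holds little fibrillar collagen and is rich in hyaluronan and proteoglycans. In EAE, leukocytes leave the blood through the endothelial and the parenchymal basement membrane, and matrix proteins such as fibronectin and SPARC are produced by vascular and glial cells.

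Total counts ranged from 26972179 to 45243553 per library, and TMM scaling factors were between 0.98 and 1.02. Levels are CPM, read counts scaled to a common library size with these factors, with replicates 1, 2 and 3 in that order and means as mean ± SD with n = 3. Cortical neuron genes summed to 4235, 4758 and 4780.4 CPM in treated EAE, 4341, 3668 and 4144 CPM in EAE and 4546, 4216 and 4283 CPM in naive samples, so the labelled tissue was present in each. Genes of the neighbouring striatum summed to 261, 821 and 283 CPM in treated EAE, 764, 1112 and 201 CPM in EAE and 1287, 397 and 179.5 CPM in naive samples, a wide range within every group. EAE replicate 1 stood apart in choroid plexus genes, and treated replicate 1 in decorin and Col23a1, whose values are given with the results they touch. In bulk tissue, fewer cells of a type and less RNA per cell cannot be told apart.

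Sparcl1 dominated the transcripts of the 64 genes. It encodes hevin, a relative of SPARC that astrocytes secrete. Per length of exon, its mean over the 9 libraries was 688 CPM per kb, followed by Sparc at 61.8, Col6a1 at 35.8, Col4a2 at 18.4, Col4a1 at 10.7 and Mgp at 9.28 CPM per kb. Of the 64 genes, 5 were above 10 CPM per kb, 32 between 1 and 10, 26 between 0.1 and 1, and 1 below 0.1, which was Col4a3 at 0.0843 CPM per kb. Among laminin chains, those of vessel walls stood at 7.41 CPM per kb for Lamb2, 5.61 for Lamc1, 2.31 for Lamb1 and 0.942 for Lama4, and those of epithelial laminin at 1.01 for Lama3 and 0.275 for Lamb3, so the 2 sets overlapped. Collagens of other classes also ranked high, among them the FACIT collagens Col19a1 at 8.7 and Col16a1 at 6.49 CPM per kb, and the fibrillar chains Col5a1 at 7.998 and Col11a2 at 6.94 CPM per kb. Summed over the 64 genes, levels were 3412 ± 278 CPM in treated EAE, 4008 ± 339 CPM in EAE and 3284 ± 380.3 CPM in naive cortex, and Sparcl1 made up between 52.2% and 63.8% of the sum in every library. Without Sparcl1 and Sparc the sums were 1264 ± 121 CPM, 1483 ± 133 CPM and 1189 ± 113 CPM in treated EAE, EAE and naive cortex.

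**Figure D1:**
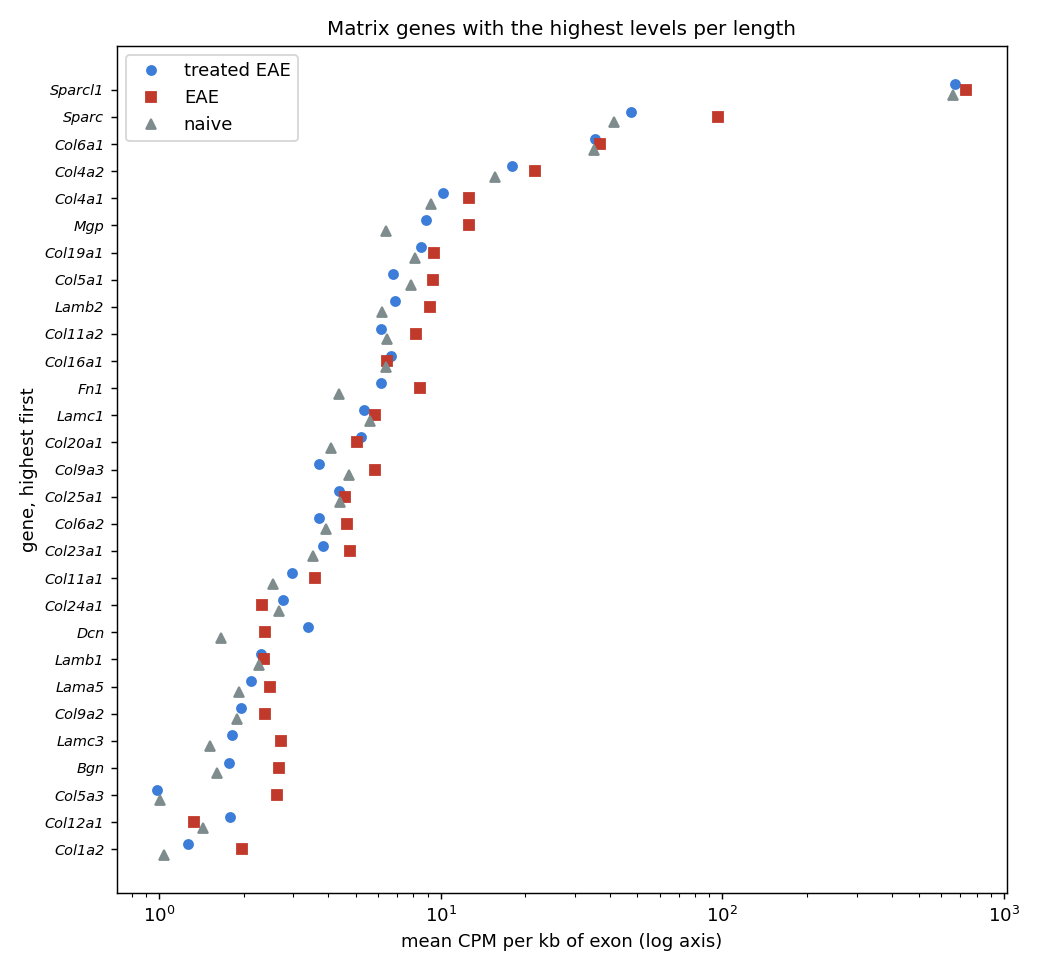
Mean level per kb of exon (log axis) of 29 of the 30 matrix genes with the highest values, one row per gene, with circles for treated EAE, squares for EAE and triangles for naive cortex (each the mean of 3 libraries). Sparcl1, near 688 CPM per kb over all libraries, lies far to the right of Sparc. It lies by more than a decade for the circle and triangle and by less for the square. The square lies clearly to the right of both other symbols for Sparc and Col5a3.

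In EAE against naive cortex, Sparc, Col5a3 and Fn1 rose, and no matrix gene passed the threshold as lower. Sparc encodes a collagen-binding matricellular glycoprotein, Col5a3 a chain of collagen V, which co-assembles with collagen I, and Fn1 fibronectin, a ligand of integrins. These 3 of 64 are 4.69% of the matrix genes, all higher, beside 0.987% of the 18644 genes tested that passed in either direction and 0.735% that passed as higher (edgeR's quasi-likelihood test, adjusted p under 0.05 over all genes). The remaining 61 did not pass, but 48 of the 64 had a log2 fold change above 0, which 49.0% of all genes had, and the median was 0.33 against -0.0051 over all genes. All 3 EAE libraries lay above all 3 naive libraries for 19 matrix genes and below them for 1, together 31.2% of the list, where 24.0% of all genes did not overlap in either direction (12.2% higher, 11.8% lower). An unadjusted p under 0.05 was reached by 20 of the 64, against 16.4% of all genes, and DESeq2 called 11 of them, against 5.43% of the genes to which it gave an adjusted p. The calls depended on single libraries: no matrix gene passed without naive replicate 1 or without naive replicate 3, and only Sparc passed without naive replicate 2 or without EAE replicate 2. With EAE replicate 1 and treated replicate 1 both left out, 4 passed, Col3a1 with the other three.

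Sparc measured 186, 188 and 164 CPM in treated EAE, 316, 425 and 359.9 CPM in EAE and 127, 188 and 153 CPM in naive cortex. The EAE libraries were the 3 highest of the 9, and the lowest of them was far above the highest of the others. The log2 fold change of EAE over naive was 1.23 (SE 0.15, 95% interval 0.89 to 1.57, edgeR adjusted p = 0.0118), with means of 367 ± 54.8 CPM in EAE and 156 ± 30.6 CPM in naive cortex. The adjusted p was under 0.05 in 15 of 17 alternative settings, over which it spanned 6.74e-12 to 0.0714. Sparcl1, its relative, measured 1906, 1800.0 and 2199 CPM in treated EAE, 1908, 2267 and 2300.0 CPM in EAE and 1572, 2033 and 2210.4 CPM in naive cortex. The groups overlapped, and the log2 difference of EAE over naive was 0.15 with an interval of -0.15 to 0.46, which does not reach the interval of Sparc.

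Col5a3 measured 6.89, 6.36 and 6.94 CPM in treated EAE, 16.3, 22.1 and 15.2 CPM in EAE and 7.76, 8.18 and 4.69 CPM in naive cortex. Again the 3 EAE libraries were the highest of the 9, with no overlap with either other group. Means were 17.9 ± 3.72 CPM in EAE and 6.87 ± 1.91 CPM in naive cortex, which is 1.38 on the log2 scale (SE 0.21, interval 0.90 to 1.85, adjusted p = 0.028), which passed in 12 of 17 alternatives with adjusted p spanning 3.08e-07 to 0.119. Fn1 measured 80.8, 68.96 and 65.95 CPM in treated EAE, 73.9, 103 and 120.2 CPM in EAE and 48.9, 46.5 and 57.9 CPM in naive cortex. Each EAE library exceeded each naive one, although EAE replicate 1 was below treated replicate 1. Its log2 fold change was 0.96 (SE 0.17, interval 0.57 to 1.34, adjusted p = 0.0398), and it passed in 9 of 17 alternatives with adjusted p spanning 1.34e-05 to 0.169. Fn1 (chromosome 1, 71585520 to 71653200, minus strand, GRCm38) shares exon sequence with Apol7d on the other strand, so reads of the 2 genes cannot be told apart without a stated strand setting. Sparc (chromosome 11, 55394500 to 55423183, minus strand) and Col5a3 (chromosome 9, 20770050 to 20815067, minus strand) share no exon with another gene in GENCODE M21.

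The promoters of Sparc and Col5a3 are shown because these were the 2 genes that rose in EAE and fell with the compound. Each window holds 250 bases before and 50 after the transcript start used in the RefSeq promoter table on GRCm38.p6. Capitals mark GC boxes, spelled GGGCGG, on either strand. They also mark the box spelled CCAAT, on either strand.
Sparc, chr11:55420031-55420330, minus strand: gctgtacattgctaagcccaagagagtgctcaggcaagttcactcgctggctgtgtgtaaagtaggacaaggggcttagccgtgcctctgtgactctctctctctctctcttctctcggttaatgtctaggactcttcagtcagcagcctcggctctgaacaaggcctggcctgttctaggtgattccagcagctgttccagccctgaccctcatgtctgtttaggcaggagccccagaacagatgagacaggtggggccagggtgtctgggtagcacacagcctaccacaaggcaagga
Col5a3, chr9:20815018-20815317, minus strand: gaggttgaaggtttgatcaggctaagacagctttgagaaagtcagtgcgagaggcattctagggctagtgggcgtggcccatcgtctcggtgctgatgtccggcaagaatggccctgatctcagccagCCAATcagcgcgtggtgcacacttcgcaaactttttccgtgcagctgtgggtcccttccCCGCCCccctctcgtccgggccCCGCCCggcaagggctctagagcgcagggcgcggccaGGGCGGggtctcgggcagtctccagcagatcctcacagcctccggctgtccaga
The Col5a3 window holds 3 GC boxes and 1 CCAAT box, which do not overlap, and the Sparc window holds neither of these letters, nor those of a TATA box, TATAAA. In the 47 windows of the 43 matrix genes that have one, the GC box letters occurred in 59.6%, those of the CCAAT box in 31.9% and those of the TATA box in 10.6%. The shares in 32851 mouse promoter windows of the same length were 35.7%, 37.4% and 13.6%. For Sparc this start lies inside the longer GENCODE gene, and for Col5a3 it lies inside the outermost RefSeq boundary of the gene.

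**Figure D2:**
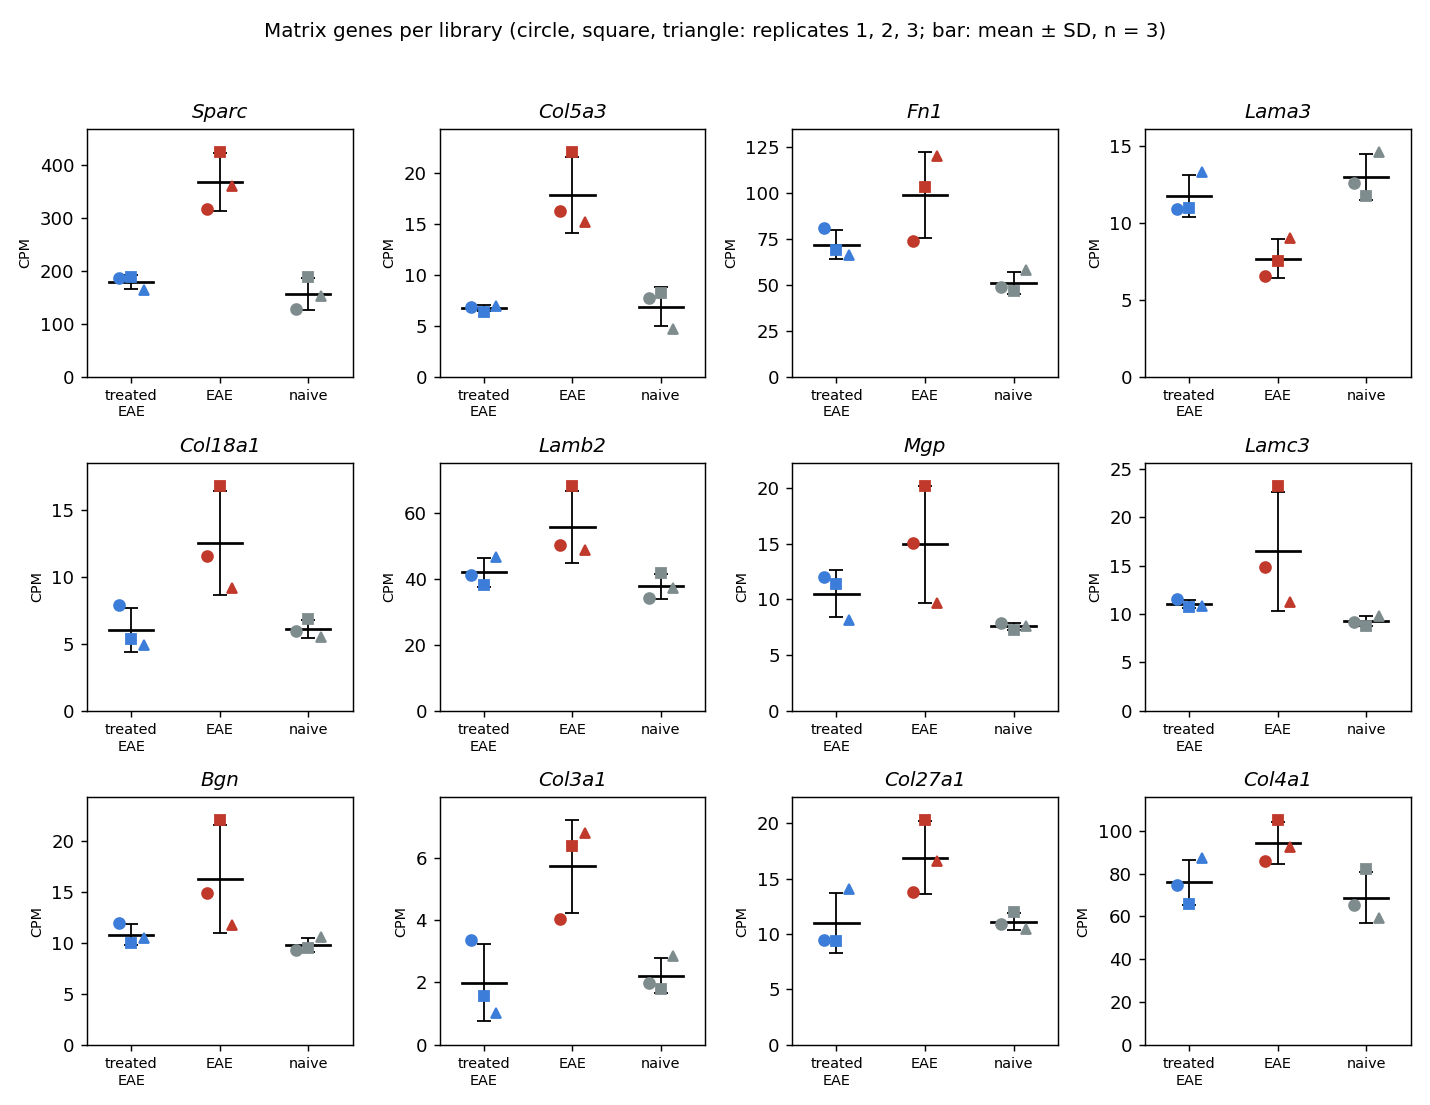
CPM per library of the 12 matrix genes with the smallest unadjusted p in EAE against naive cortex, in the columns treated EAE, EAE and naive, with circles, squares and triangles for replicates 1, 2 and 3 and bars for mean ± SD (n = 3, axes from 0). In the Sparc, Col5a3, Col18a1, Lamb2 and Col3a1 panels the 3 EAE points stand above all others, and in the Lama3 panel they stand below all others. In the remaining panels EAE replicate 2 or 3 is the highest point.

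Of 11 fibrillar collagen chains, Col5a3 rose in EAE, 9 had a log2 difference above 0, and the class median was 0.50. Col3a1, a chain of vessel walls and loose connective tissue, measured 3.37, 1.57 and 1.03 CPM in treated EAE, 4.02, 6.37 and 6.77 CPM in EAE and 1.99, 1.8 and 2.86 CPM in naive cortex. The EAE and naive libraries did not overlap, but at this low level the log2 difference of 1.37 had an SE of 0.41 and did not pass (adjusted p = 0.139). Col1a1 and Col1a2, the chains of collagen I, differed by 0.96 and 0.92 on the log2 scale without overlap (adjusted p = 0.3 and 0.298). For Col1a1 the values were 12.9, 5.62 and 4.12 CPM in treated EAE, 10.8, 17.7 and 11.6 CPM in EAE and 5.48, 6.01 and 9.24 CPM in naive cortex, and treated replicate 1 lay inside the EAE range. Col27a1, a fibrillar collagen first known from cartilage, measured 9.5, 9.41 and 14.1 CPM in treated EAE, 13.8, 20.3 and 16.6 CPM in EAE and 10.9, 11.95 and 10.4 CPM in naive cortex, again without overlap between EAE and naive (log2 difference 0.61, adjusted p = 0.147). The other collagen V chains overlapped between all groups. Col5a1 ranged over 35.3 to 72.5 CPM in treated EAE, 51.1 to 116 CPM in EAE and 33.6 to 94.3 CPM in naive cortex. Col5a2 ranged over 5.24 to 11.9, 7.82 to 10.1 and 6.09 to 8.13 CPM in the same order. Their log2 differences of EAE over naive were 0.25 (interval -0.78 to 1.29) and 0.37 (interval -0.26 to 1.00). Both intervals reach that of Col5a3, so a difference from Col5a3 is not shown. Col11a1, Col11a2, Col2a1 and Col24a1 overlapped between EAE and naive as well.

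None of the 6 collagen IV chains passed, but all 6 were above 0 in EAE against naive, with a class median of 0.47. Col4a1 and Col4a2, which form the common collagen IV trimer, are transcribed head to head, and their first exons overlap by 22 bases. Their promoter windows share 78 bases, printed in capitals, and the starts these windows are set on are 21 bases apart on opposite strands, so the shared stretch reads as the reverse complement in the second sequence.
Col4a1, chr8:11312777-11313076, minus strand: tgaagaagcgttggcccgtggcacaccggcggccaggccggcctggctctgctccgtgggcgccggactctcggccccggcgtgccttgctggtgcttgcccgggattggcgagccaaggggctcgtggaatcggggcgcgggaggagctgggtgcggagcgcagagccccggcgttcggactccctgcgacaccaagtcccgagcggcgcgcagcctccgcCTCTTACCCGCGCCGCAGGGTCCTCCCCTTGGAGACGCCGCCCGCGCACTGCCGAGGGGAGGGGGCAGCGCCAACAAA
Col4a2, chr8:11312555-11312854, plus strand: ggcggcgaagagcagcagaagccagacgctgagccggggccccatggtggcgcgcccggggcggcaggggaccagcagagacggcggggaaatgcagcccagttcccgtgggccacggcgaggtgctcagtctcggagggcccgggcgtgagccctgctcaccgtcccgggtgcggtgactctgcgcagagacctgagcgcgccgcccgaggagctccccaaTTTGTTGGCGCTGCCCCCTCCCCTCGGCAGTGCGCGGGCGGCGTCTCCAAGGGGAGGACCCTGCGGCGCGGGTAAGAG
Col4a1 measured 74.6, 65.95 and 87.2 CPM in treated EAE, 85.7, 105 and 92.2 CPM in EAE and 65.3, 81.99 and 59.2 CPM in naive cortex. Col4a2 measured 113, 109.7 and 134 CPM in treated EAE, 124, 162 and 145 CPM in EAE and 103, 125 and 82.7 CPM in naive cortex. In both genes EAE replicate 2 was the highest library. For Col4a1 the 3 EAE libraries lay above all naive ones, while for Col4a2 naive replicate 2 exceeded the lowest EAE library. The log2 differences of EAE over naive were 0.46 (SE 0.14, adjusted p = 0.152) for Col4a1 and 0.47 (SE 0.16, adjusted p = 0.172) for Col4a2. The other chains also lie in head-to-head pairs, Col4a3 with Col4a4 at a gap of 71 bases and Col4a5 with Col4a6 at 1308 bases, and their means over the 9 libraries were low, at most 0.74 CPM per kb. Col4a6 stood at 2.11, 4.17 and 1.46 CPM in EAE and 1.16, 1.39 and 1.41 CPM in naive cortex, without overlap (log2 difference 0.97, adjusted p = 0.281).

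None of the 11 laminin chains passed either, with 8 above 0 and a class median of 0.09. Without overlap, 4 lay above and 1 below the naive range. Together these are 45.5% of the class, where 24.0% of all genes did not overlap (12.2% higher, 11.8% lower). Lamb2, the beta chain of mature vascular and pial laminins, measured 41.2, 37.99 and 46.5 CPM in treated EAE, 50.1, 68.2 and 48.6 CPM in EAE and 34.04, 41.7 and 37.2 CPM in naive cortex (EAE over naive 0.57 on the log2 scale, adjusted p = 0.0867). Lamc3, a gamma chain, measured 11.6, 10.7 and 10.9 CPM in treated EAE, 14.9, 23.3 and 11.3 CPM in EAE and 9.23, 8.73 and 9.79 CPM in naive cortex (0.83, adjusted p = 0.103). In both, EAE replicate 2 was the highest library. Lama1, an alpha chain of the pial and parenchymal basement membranes, ranged over 4.17 to 11.2 CPM in EAE and 3.41 to 4.001 CPM in naive cortex (1.01, adjusted p = 0.189), and Lama5, an endothelial alpha chain, over 27.1 to 29.6 and 20.2 to 23.98 CPM (0.36, adjusted p = 0.267). Lama4, the alpha chain of endothelial membranes that leukocytes cross, had a log2 difference of -0.02 with an interval of -0.48 to 0.44. Lamc1, the gamma chain of most laminins, had the smallest ratio of the highest to the lowest library of the 63 genes above 0 in every library, at 1.3, with 46.7 to 50.97 CPM in EAE and 45.4 to 46.8 CPM in naive cortex and an interval of -0.11 to 0.25. Lama3, the alpha chain of epithelial laminin, went the other way. It measured 10.9, 11.004 and 13.3 CPM in treated EAE, 6.52, 7.54 and 8.997 CPM in EAE and 12.6, 11.7 and 14.6 CPM in naive cortex, so that the 3 EAE libraries were the 3 lowest of the 9. Its log2 difference of -0.76 (SE 0.15) missed the threshold at an adjusted p of 0.0525 and was under it in 6 of 17 alternatives, over which it spanned 0.000553 to 0.17. Its exons overlap Gm29200, and those of Lamc3 overlap Gm13441, each on the opposite strand.

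Among the remaining basement membrane genes, Col18a1, the precursor of endostatin, measured 7.94, 5.36 and 4.89 CPM in treated EAE, 11.6, 16.9 and 9.21 CPM in EAE and 5.95, 6.89 and 5.51 CPM in naive cortex. EAE libraries lay above naive and treated ones without overlap, at a log2 difference of 1.04 over naive (SE 0.25, adjusted p = 0.0787). Its fellow multiplexin Col15a1 overlapped between all groups. Nid1, which links laminin to collagen IV, ranged over 9.31 to 14.4 CPM in EAE and 7.26 to 8.27 CPM in naive cortex (log2 difference 0.48, adjusted p = 0.223), and Nid2 over 4.38 to 6.07 and 3.35 to 4.96 CPM with overlap. Mgp, which inhibits calcification of vessel walls, measured 12.04, 11.4 and 8.12 CPM in treated EAE, 15.1, 20.1 and 9.66 CPM in EAE and 7.84, 7.26 and 7.62 CPM in naive cortex. Naive libraries were within a narrow range below the other 2 groups, and the log2 difference of EAE over naive was 0.98 (adjusted p = 0.091). Bgn, a small proteoglycan of connective tissue and vessels, measured 11.97, 9.96 and 10.4 CPM in treated EAE, 14.9, 22.1 and 11.7 CPM in EAE and 9.25, 9.5 and 10.6 CPM in naive cortex, with EAE above naive in every pair of libraries (0.73, adjusted p = 0.116).

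Collagen VI chains, FACIT collagens and transmembrane collagens gave no call. Of 6 collagen VI chains, which form beaded microfibrils, 3 were above 0 and the median was 0.03. Col6a1 measured 145, 159 and 161 CPM in treated EAE, 185, 199 and 99.6 CPM in EAE and 204, 174 and 84.4 CPM in naive cortex, and replicate 3 was the lowest library of both the EAE and the naive group. Of 9 FACIT collagens, which bind to the surface of other fibrils, 5 were above 0 with a median of 0.01. Of 4 transmembrane collagens, all 4 were above 0 with a median of 0.31 and wide spread. Col25a1, a transmembrane collagen of neurons, ranged over 44.3 to 68.4 CPM in EAE and 36.01 to 69.01 CPM in naive cortex. Col10a1, the hypertrophic cartilage collagen, had no count in EAE replicate 3 and between 4 and 24 counts in the other libraries.

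**Figure D3:**
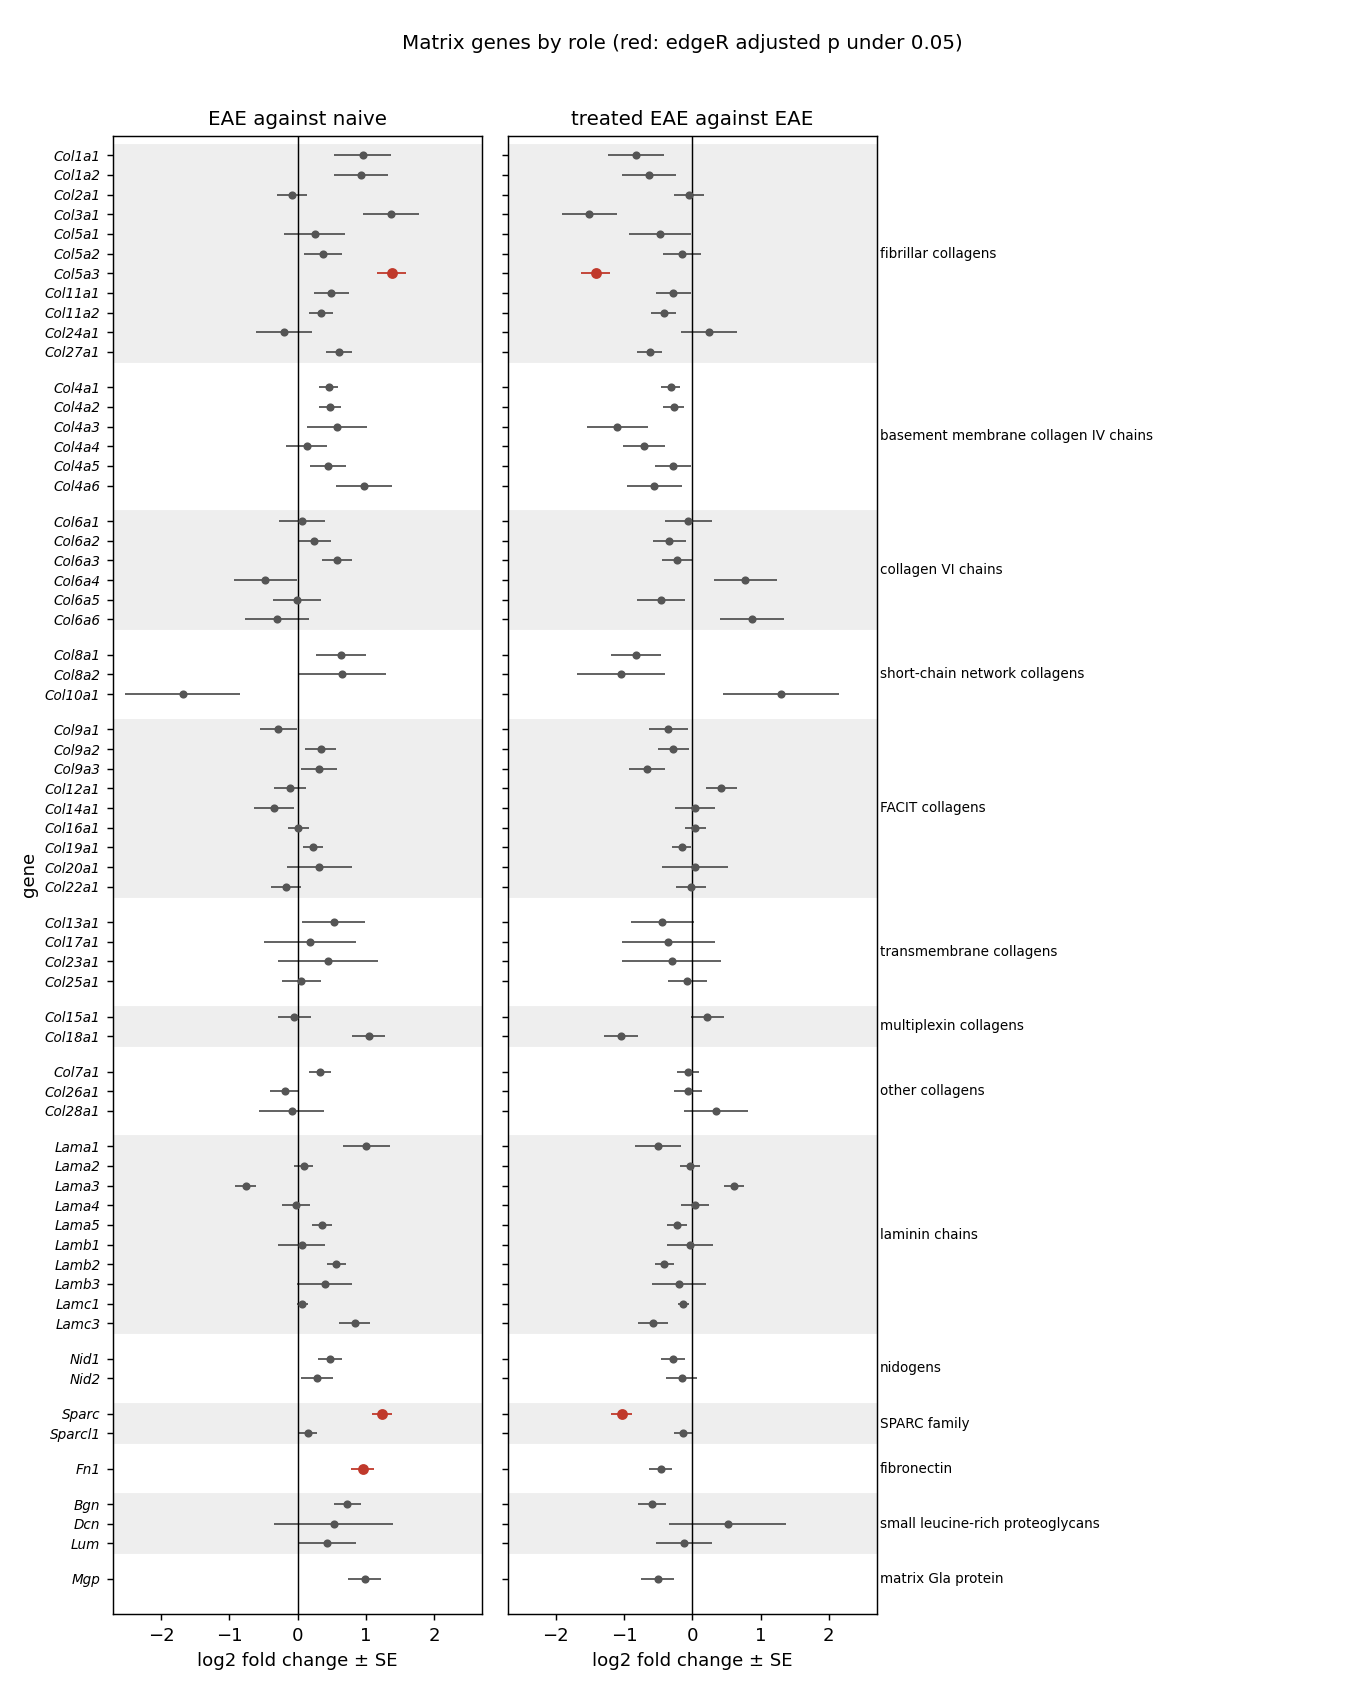
Log2 fold change ± SE of 63 of the 64 matrix genes, one row per gene, grouped by role, for EAE against naive (left) and treated EAE against EAE (right), with red for an edgeR adjusted p under 0.05. Most points lie right of 0 on the left (48 of 64) and left of 0 on the right (50 of 64), and the same EAE libraries enter both panels.

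In treated EAE against EAE, Sparc and Col5a3 fell, and no matrix gene passed the threshold as higher. These 2 of 64 are 3.12% of the matrix genes, beside 0.22% of the 18644 genes tested that passed in either direction and 0.129% that passed as lower. The median of the list was -0.27 against 0.0029 over all genes, and 14 of 64 were above 0, which 50.6% of all genes were. Treated libraries lay below EAE libraries without overlap for 6 matrix genes and above for 1, together 10.9% of the list, where 19.2% of all genes did not overlap (9.93% higher, 9.28% lower), so the share of separated genes was below that of all genes. An unadjusted p under 0.05 was reached by 14 of the 64, against 15.1% of all genes, and DESeq2 called 6, against 3.91% of the genes with its adjusted p. Both comparisons use the same 3 EAE libraries, so opposite signs in them are not independent results. Here too the calls depended on single libraries: Sparc passed alone without naive replicate 1 or without EAE replicate 1, Col5a3 passed alone without naive replicate 3, and neither passed without any one of the remaining 6 libraries, without EAE replicate 1 and treated replicate 1 together, or in a fit of the 2 groups alone.

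Sparc averaged 179 ± 13.4 CPM in treated EAE and 367 ± 54.8 CPM in EAE, which is a difference of -1.03 on the log2 scale (SE 0.15, interval -1.37 to -0.69, adjusted p = 0.0456). The adjusted p passed in 7 of 17 alternatives and spanned 4.83e-08 to 0.15. Col5a3 averaged 6.73 ± 0.324 CPM in treated EAE and 17.9 ± 3.72 CPM in EAE, which is -1.41 on the log2 scale (SE 0.21, interval -1.89 to -0.93, adjusted p = 0.0456), passing in 6 of 17 alternatives with adjusted p spanning 1.73e-07 to 0.154. Both fold changes kept their sign in every alternative. Fn1, which had risen in EAE, averaged 71.9 ± 7.82 CPM in treated EAE and 99.03 ± 23.4 CPM in EAE. The groups overlapped, and the log2 difference of -0.46 (SE 0.17) did not pass (adjusted p = 0.243).

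The other genes that lay below EAE without overlap were Col18a1 (log2 difference -1.05, adjusted p = 0.119), Col3a1 (-1.51, 0.149), Lamb2 (-0.41, 0.215) and Col4a3 (-1.10, 0.293), and none of them passed. The gene above EAE without overlap was Lama3, at 0.61 with an adjusted p of 0.13. All 6 collagen IV chains were below 0, with a class median of -0.43. Of 11 fibrillar chains 10 were below 0 with a median of -0.47, and of 11 laminin chains 8 with a median of -0.13. Both nidogens were below 0 at a median of -0.21, while FACIT collagens had 5 of 9 below 0 and a median of -0.01. For Col4a1 the difference was -0.31 (adjusted p = 0.332) and for Col4a2 -0.27 (0.457), with treated replicate 3 inside the EAE range in both. For Bgn it was -0.59 (0.218), for Mgp -0.51 (0.365) and for Sparcl1 -0.13 (interval -0.44 to 0.17).

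Treated EAE against naive cortex gave no call among the 64 matrix genes, and 0.0% of the 18644 genes tested passed with edgeR. At an unadjusted p under 0.05 there were 318 genes, 1.71% of those tested, and DESeq2 called 3 of 27618 genes, or 0.0109%, and no matrix gene among them. Of the matrix genes, 2 had an unadjusted p under 0.05. Fn1 was one, at 80.8, 68.96 and 65.95 CPM in treated EAE and 48.9, 46.5 and 57.9 CPM in naive cortex, without overlap and with a log2 difference of 0.49 (SE 0.17, unadjusted p = 0.0166). The other was Col9a1, at 0.708, 0.664 and 0.588 CPM in treated EAE and 1.05, 1.06 and 0.931 CPM in naive cortex, also without overlap (-0.63, unadjusted p = 0.0464). Mgp, Lamc3 and Col6a3 lay above naive without overlap as well, and Col9a3 below, so that 4 matrix genes were higher and 2 lower in this sense, where 6.25% of all genes did not overlap (3.51% higher, 2.74% lower). The median over the 64 was 0.066 against 0.0098 over all genes, and 40 of 64 were above 0, against 53.6% of all genes. Sparc differed by 0.20 (interval -0.13 to 0.54) and Col5a3 by -0.03 (interval -0.51 to 0.45).

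Single libraries set the range of many matrix genes. The highest library exceeded the lowest by a median factor of 2.51 (Col10a1, at 0 in 1 library, left out), by more than 2 in 42 genes and by more than 4 in 13. EAE replicate 2 was the highest library for 24 of the 64 genes. Decorin had the widest range, 13.7-fold. Dcn measured 47.9, 7.9 and 3.49 CPM in treated EAE, 17.4, 15.1 and 9.1 CPM in EAE and 4.81, 11.9 and 12.4 CPM in naive cortex. The treated group held both the highest and the lowest library, and the log2 difference of treated EAE over EAE was 0.52 with SE 0.85, but -1.08 without EAE replicate 1 and treated replicate 1. Col23a1, a transmembrane collagen, measured 47.96, 10.2 and 7.83 CPM in treated EAE, 32.4, 30.4 and 18.97 CPM in EAE and 9.92, 35.8 and 14.8 CPM in naive cortex, with treated replicate 1 again the highest. Other genes turned on 1 library too. Col8a2, a chain of the corneal and vascular collagen VIII, was at 7.01, 1.16 and 1.56 CPM in EAE, against 1.56 to 2.52 CPM in naive cortex. Col9a3 stood at 34.2, 16.9 and 16.6 CPM in EAE, and Col20a1 at 5.83, 27.5 and 29.4 CPM in naive cortex. Col8a2 and Col9a3 were highest in EAE replicate 1, the library with most choroid plexus RNA, and whether that RNA contributed was not tested.

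**Figure D4:**
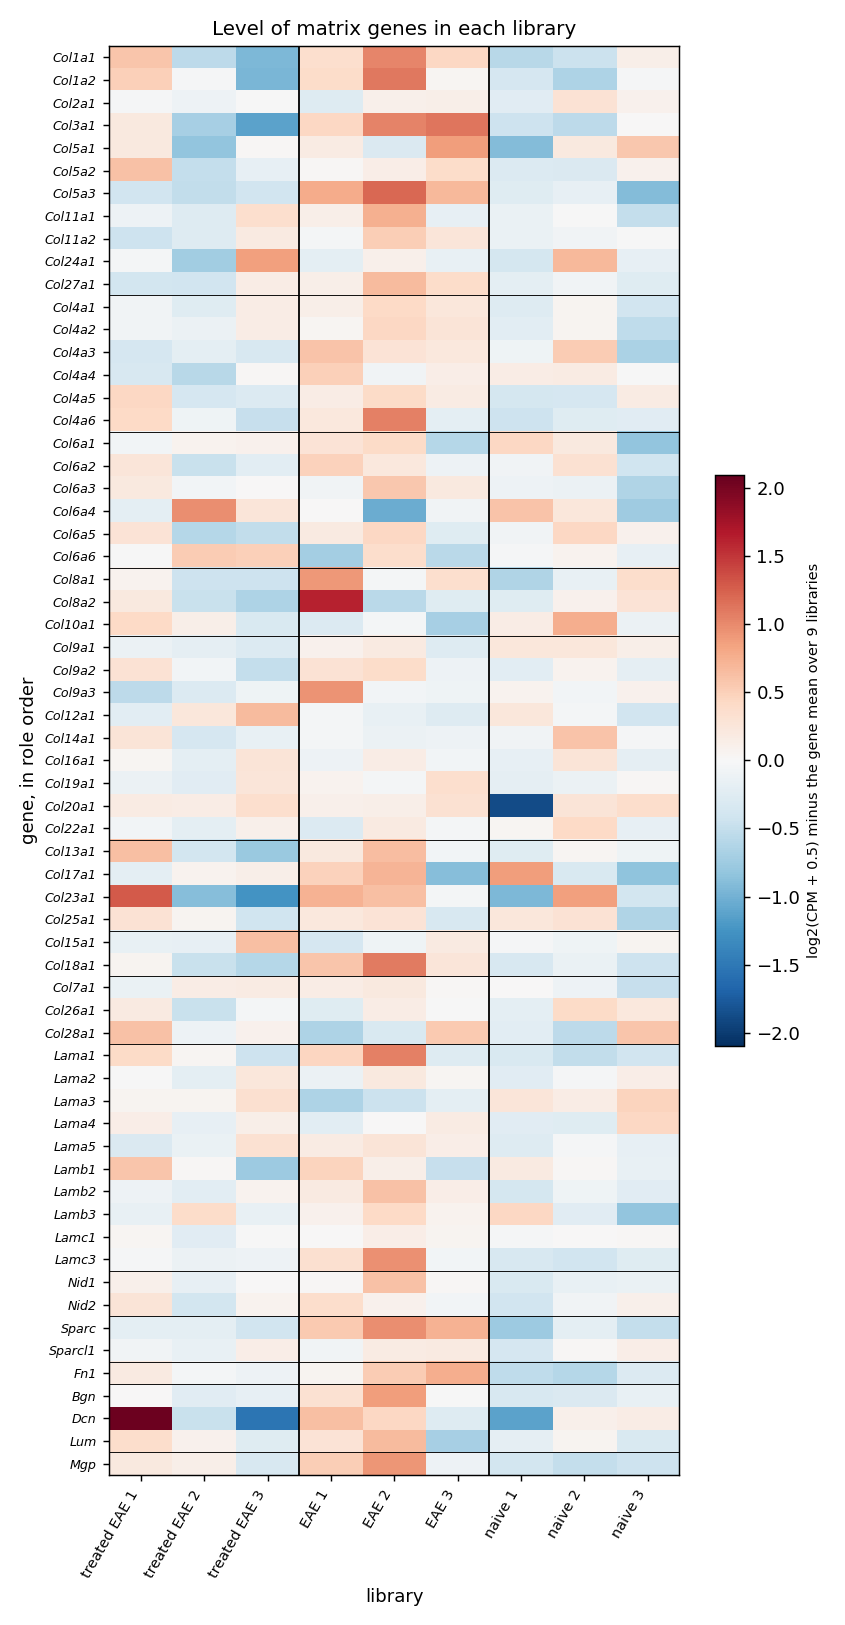
Log2(CPM + 0.5) of 63 of the 64 matrix genes in each of the 9 libraries minus the gene's mean over the 9 libraries, genes in rows in role order and libraries in columns as treated EAE, EAE and naive, with red above and blue below the gene's mean. EAE replicate 2 holds the highest value of 24 genes, the Sparc and Col5a3 rows are red in all 3 EAE columns and blue in the others, and the darkest cells include Dcn in treated replicate 1 and Col20a1 in naive replicate 1.

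Some matrix genes are neighbours on a chromosome. Dcn and Lum, 47.0 kb apart on chromosome 10, overlapped between all groups, and Lum measured 1.21 to 2.12 CPM in treated EAE, 0.764 to 2.72 CPM in EAE and 1.14 to 1.61 CPM in naive cortex, without the high value that Dcn had in treated replicate 1. Col3a1 and Col5a2 lie 24.6 kb apart on chromosome 1. Their log2 differences of EAE over naive were 1.37 (interval 0.46 to 2.28) and 0.37 (interval -0.26 to 1.00), with overlapping intervals. In all, 19 of the 64 genes have exons that overlap another gene in GENCODE M21, 16 of them on the opposite strand.

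Calls among other genes that make, cut, bind or accompany the matrix are given by list. Of all 18644 genes tested, 0.987% passed in EAE against naive and 0.22% in treated EAE against EAE, in either direction. Among 25 tested matrix receptors, Sdc4 was the one that passed, which is 4.0% of the list in each comparison. It encodes syndecan-4, a heparan sulphate proteoglycan that binds fibronectin with integrins. Sdc4 measured 47.6, 50.1 and 56.1 CPM in treated EAE, 71.5, 95.4 and 94.9 CPM in EAE and 40.9, 47.1 and 47.7 CPM in naive cortex. The 3 EAE libraries were above all others, and it rose by 0.95 in EAE over naive (adjusted p = 0.0123, passing in 14 of 17 alternatives) and had a log2 fold change of -0.77 in treated EAE over EAE (adjusted p = 0.0457, 7 of 17 alternatives). The median of the receptors was 0.21 in EAE against naive and -0.06 in treated EAE against EAE. Among 22 tested proteases and inhibitors, Plat, the tissue plasminogen activator, rose in EAE, which is 4.55% of the list. It measured 30.96, 26.3 and 25.5 CPM in treated EAE, 37.9, 40.1 and 38.4 CPM in EAE and 23.4, 28.8 and 27.1 CPM in naive cortex, a log2 fold change of 0.55 over naive (adjusted p = 0.0385, 9 of 17 alternatives). None of them passed in treated EAE against EAE. Their medians in the 2 comparisons were 0.21 and -0.07.

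Of 16 genes of the brain's own interstitial matrix, 2 fell and 1 rose in EAE. Together these are 18.8% of the list, beside 0.987% of all genes tested. Ncan and Cspg5, which encode chondroitin sulphate proteoglycans of neural cells, fell, and the hyaluronan synthase gene Has1 rose. Ncan measured 278, 258 and 292 CPM in treated EAE, 189, 224 and 187 CPM in EAE and 296, 297 and 258 CPM in naive cortex (EAE over naive -0.50, adjusted p = 0.0442, 6 of 17 alternatives). Cspg5 measured 310.2, 316 and 324 CPM in treated EAE, 224, 258 and 251 CPM in EAE and 326, 333 and 334 CPM in naive cortex (-0.44, adjusted p = 0.028, 10 of 17 alternatives). In both, the 3 EAE libraries were the lowest of the 9. Has1 measured 42.9, 41.999 and 46.5 CPM in treated EAE, 58.1, 64.01 and 58.4 CPM in EAE and 40.3, 48.8 and 44.7 CPM in naive cortex (0.43, adjusted p = 0.0494, 6 of 17 alternatives), with EAE the highest. The median of the 16 was -0.06, and in treated EAE against EAE none passed and the median was 0.02. No gene passed in either comparison among 26 genes of collagen processing and crosslinking (medians 0.16 and -0.11), 18 other basement membrane and elastic fibre genes (0.16 and -0.01), 8 tested small leucine-rich proteoglycans (0.30 and -0.53) and 17 genes of TGF-beta signalling and its matricellular targets (0.47 and -0.28). In the last group Spp1, osteopontin, measured 13.7, 6.5 and 4.26 CPM in treated EAE, 16.7, 24.1 and 66.3 CPM in EAE and 3.22, 5.13 and 6.13 CPM in naive cortex, with EAE replicate 3 far above the rest and a log2 difference over naive of 2.90 (adjusted p = 0.0744). Lox, the lysyl oxidase that crosslinks collagen, measured 0.415, 0.356 and 0.478 CPM in treated EAE, 0.876, 1.46 and 1.84 CPM in EAE and 0.425, 0.0733 and 0.655 CPM in naive cortex, without overlap between EAE and naive (log2 difference 1.83, adjusted p = 0.136).

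Marker genes of cells that hold matrix transcripts were summed in each library, and their part in the differences above was not tested. The 19 fibroblast markers, none of them a matrix gene counted above, summed to 332, 244 and 194 CPM in treated EAE, 321, 448 and 191 CPM in EAE and 188, 233 and 235 CPM in naive cortex. Of these, 16 were above 0 in EAE against naive with a median of 0.63, 15 were below 0 in treated EAE against EAE with a median of -0.25, and none passed. EAE replicate 2 was the highest library for fibroblast markers and for 24 of the 64 matrix genes. These included Col1a1, Col1a2, Bgn, Mgp, Sparc and Col5a3. Col3a1, Col5a1 and Fn1 were highest in EAE replicate 3, and Dcn in treated replicate 1. The endothelial, pericyte, astrocyte and microglial sums given next were also highest in EAE replicate 2.

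The 16 endothelial markers summed to 427, 458 and 632 CPM in treated EAE, 470.1, 662 and 529 CPM in EAE and 453, 442 and 438 CPM in naive cortex (12 above 0 in EAE against naive, median 0.26, and 11 below 0 in treated EAE against EAE, median -0.08, none passing). The 13 markers of pericytes and smooth muscle summed to 271, 248 and 356 CPM, 275, 372 and 291 CPM and 263, 266 and 270.3 CPM in treated EAE, EAE and naive cortex, with medians of 0.21 and -0.19 in the 2 comparisons and no call. The vascular sums thus overlapped between treated EAE and EAE. The 8 astrocyte markers summed to 4552, 5098 and 6512 CPM, 5181, 7405 and 6327 CPM and 5117, 5787 and 5759 CPM in the same order of groups, with medians of 0.19 and -0.19. Gjb6, an astrocyte connexin, passed as higher in EAE against naive and as lower in treated EAE against EAE. It was the only 1 of the 8 to pass in either, beside 0.987% and 0.22% of all genes tested. Directions in the list were mixed, with 5 above and 3 below 0 in EAE against naive. In treated EAE against EAE, 6 were below and 2 above 0. Microglial markers, 8 in number, summed to 316, 335 and 379 CPM, 299, 569 and 371 CPM and 332, 348 and 283 CPM, with medians of 0.36 and -0.25 and no call.

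Markers of monocytes and macrophages were high in 2 of the 3 EAE libraries. Their 13 genes summed to 25.2, 24.4 and 10.03 CPM in treated EAE, 23.9, 78.6 and 156 CPM in EAE and 11.3, 12.2 and 13.9 CPM in naive cortex, and Ms4a4c, Plac8, Arg1, Chil3 and Msr1 were at 0 in at least 1 library. Of the 12 tested, Ms4a6c and Msr1 passed as higher in EAE (16.7%, beside 0.987% of all genes tested, list median 2.63). None passed in treated EAE against EAE (median -1.68). The 13 choroid plexus markers summed to 25.7, 17.7 and 12.6 CPM in treated EAE, 943, 39.3 and 119 CPM in EAE and 16.4, 37.3 and 52.04 CPM in naive cortex. Trpv4 passed as higher in EAE, which is 7.69% of the list. The medians of this list were 1.85 in EAE against naive and -2.16 in treated EAE against EAE. With EAE replicate 1, the library of the highest choroid plexus sum, left out, Sparc, Col5a3 and Fn1 passed in EAE against naive. In treated EAE against EAE, Sparc passed without it and Col5a3 did not. EAE replicate 3, at 119 CPM, stayed in these fits, and the part of choroid plexus RNA was not tested. Oligodendrocyte genes summed to 2570.2, 4168 and 8589 CPM, 5334, 4692 and 5421 CPM and 4898, 4231 and 6447 CPM in treated EAE, EAE and naive cortex, with no call.

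**Figure D5:**
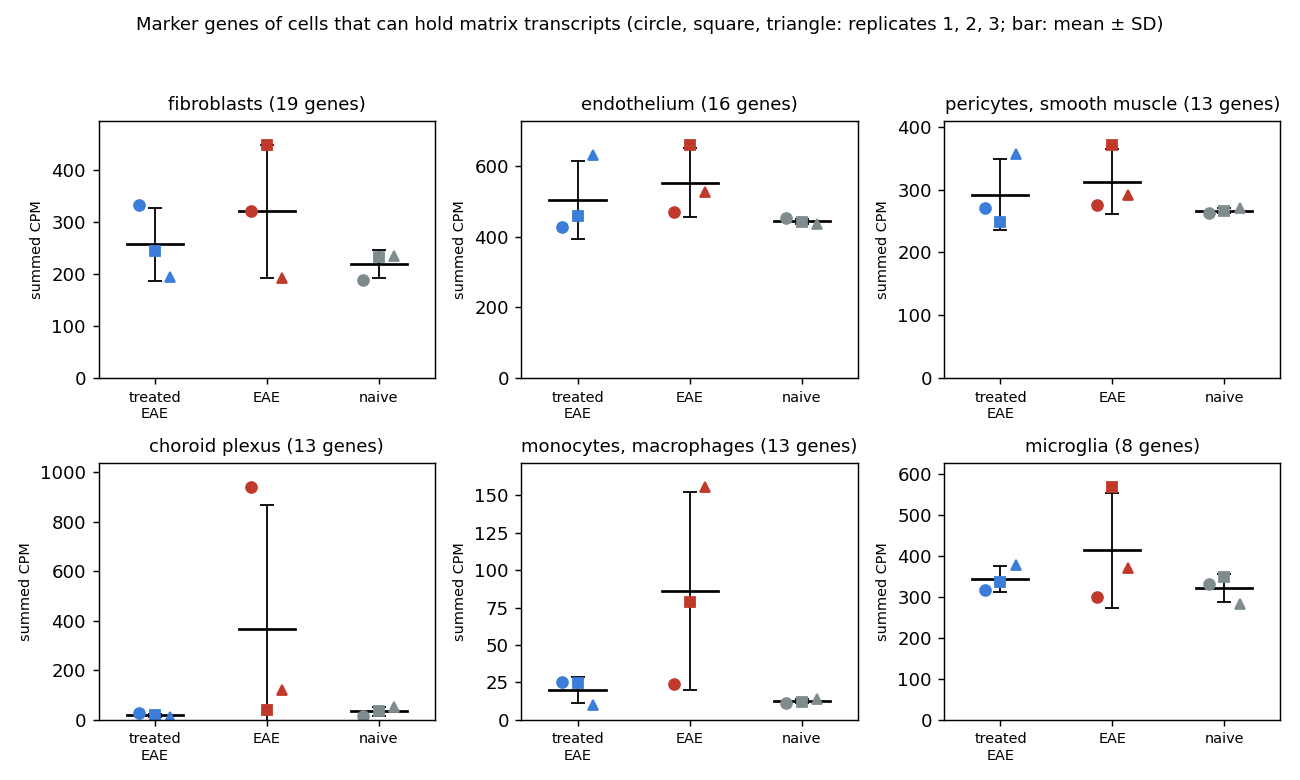
Summed CPM per library of marker genes for 6 cell types, in the columns treated EAE, EAE and naive, with circles, squares and triangles for replicates 1, 2 and 3 and bars for mean ± SD (n = 3, axes from 0). Fibroblast, endothelial, pericyte and microglial sums are highest in EAE replicate 2, the choroid plexus sum in EAE replicate 1 and the monocyte and macrophage sum in EAE replicate 3.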

How the data were processed

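Poly(A) RNA of cortex was sequenced on an Illumina HiSeq, per the labels' protocols. Per the series' design text, fastp trimmed the reads, Hisat2 aligned them and bowtie2 served for quantification. The submitters' processing notes name FastQC 0.11.8 and mm10 (GRCm38). No source used here states the annotation, the strand setting or the counting options. The authors deposited raw counts per gene symbol. Columns were matched to samples by title, and 9 further columns match no sample used here and were left out. Counts of 2 outnumbered counts of 1 by 3.80 to 4.43 in each library, so that 1 fragment may have been counted more than once.

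Counts of all 9 libraries were fitted with edgeR 4.0.16 under R 4.3.3 (TMM scaling, filterByExpr, estimateDisp, robust glmQLFit, glmQLFTest), with group as the only factor and 6 residual degrees of freedom, and the Benjamini-Hochberg adjustment ran over 18644 genes, with a threshold of 0.05. SEs and 95% intervals come from the same test. The fit was tested on simulated counts. Libraries of a group were no copies of each other (chi-square per degree of freedom 16.0 to 53.4). Deviations from group means of same-numbered treated and EAE libraries correlated at 0.17, 0.24 and 0.24, and those of different numbers at -0.16 to -0.042. For EAE and naive, same numbers correlated at 0.055, 0.11 and 0.36, and EAE 2 with naive 1 at 0.22. Treated 2 correlated with naive 1 at 0.35. Deviations from a mean of 3 libraries are not independent, so these values do not establish pairs, and the labels state none. A replicate block, DESeq2 1.42.0, other scalings, filters and left-out libraries were alternatives. The design text's DESeq2 cut-off on fold change was not applied. Levels per kb use the union of exons in GENCODE M21, and promoters are those of RefSeq on GRCm38.p6. The members, gene lists and markers were chosen with earlier results of these data known. Named genes are those past the threshold, the 10 with the smallest p per comparison, the highest of each role, and main basement membrane and proteoglycan genes. Others, such as Col1a1, Col8a2, Col20a1 and Col23a1, were named after their values were seen. The values of 1 matrix gene, which is counted in the totals, are not reported here.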

Additional observations from a re-analysis of the deposited data

How the results depend on the processing

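The number of genes called was sensitive to the tool and to single libraries. In EAE against naive, 184 genes passed, against 1041 with DESeq2, 726 in the 2 groups alone with a replicate block, 278 without EAE replicate 1 and treated replicate 1 together, and 2 to 261 with 1 library left out. In treated EAE against EAE, 41 passed, against 688 with DESeq2, 3 in the 2 groups alone, 4 there with a replicate block, 14 without those 2 libraries, and 4 to 38 with 1 left out. In treated EAE against naive 0 passed, and 3 with DESeq2. Of the matrix genes, 3 passed in EAE against naive, against 11 with DESeq2, 1 in the 2 groups alone, 9 there with a replicate block, and 0 to 4 with 1 library left out. In treated EAE against EAE 2 passed, against 6 with DESeq2, 0 in the 2 groups alone with or without a replicate block, 0 without the 2 libraries, and 0 to 1 with 1 left out. With the replicate block on 9 libraries, Lama3 replaced Fn1 (edgeR adjusted p = 0.0221 and 0.0525) in EAE against naive. The 2 calls in treated EAE against EAE were the same, Sparc and Col5a3. Pairing by replicate number is not established in either comparison. A lost call in a smaller fit comes with fewer residual degrees of freedom.

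Over the genes named, 2155 alternative values were computed: 1973 kept direction and side of the threshold, 86 lost and 48 gained a call, and 48 changed sign, none of these a called value. With 1 library left out, log2 differences of EAE over naive spanned -0.26 to 0.062 for Col12a1, -0.18 to 0.23 for Col25a1, -0.10 to 0.29 for Col4a4, -0.12 to 0.59 for Col5a1, -0.22 to 0.32 for Col6a1, -0.22 to 0.19 for Col6a5, -0.15 to 0.26 for Lama4 and -0.18 to 0.29 for Lamb1. Those of treated EAE over EAE spanned -0.26 to 0.10 for Col25a1, -0.24 to 0.10 for Col26a1, -0.32 to 0.12 for Col6a1, -0.12 to 0.028 for Col7a1, -1.28 to 1.01 for Dcn, -0.074 to 0.13 for Lama4, -0.42 to 0.25 for Lamb1, -0.49 to 0.28 for Lum, -0.33 to 0.023 for Nid2 and -0.35 to 0.043 for Tgfb1, and Col5a3 in treated EAE over naive -0.25 to 0.093. Without EAE replicate 1 and treated replicate 1, a choice made after seeing the data, EAE over naive was -0.017 for Col25a1, -0.10 for Col4a4, -0.041 for Col6a1, 0.083 for Lama4 and -0.18 for Lamb1, and treated EAE over EAE 0.087 for Col6a1, 0.040 for Col7a1, -1.08 for Dcn and -0.14 for Lama4. A replicate block gave 0.039 for Col6a1 in treated EAE over EAE and 0.0034 for Lama4 in EAE over naive (0.0027 in the 2 groups alone), and -0.23 for Dcn in treated EAE over EAE in the 2 groups alone. The cause was not tested. The size of difference that this depth and 3 mice a group can detect was not measured for low genes such as Col10a1 and Col4a3.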
